A study of Mus musculus with 20 samples.

Results

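The colony-stimulating factors are a small group of secreted proteins that control the survival, proliferation and activation of macrophages and granulocytes. The genes described here are the 3 ligand genes *Csf1*, *Csf2* and *Csf3* and the 5 receptor genes *Csf1r*, *Csf2ra*, *Csf2rb*, *Csf2rb2* and *Csf3r*. They were chosen by name, with earlier results of these data known, and matched by Ensembl identifier to 8 of the 55487 rows of the count table. RNA was sequenced from BV-2 cells, an immortalised mouse microglial line with a wild-type (WT) genotype according to the labels and made from brain cultures of C57BL/6 mice. The 20 cultures formed 4 groups of 5: young untreated, young with LPS, aged untreated and aged with LPS. Young cells were at a low passage. Aged cells came from frozen aliquots of the same line after long-term cultivation that had started from a later passage, so the groups differ in both passage and time in culture. LPS, the bacterial lipopolysaccharide that macrophages sense through a Toll-like receptor, was given at 100 ng/ml for 6 hours. No source used here says whether the aged aliquots came from more than 1 long-term culture, so p-values measure the spread between these cultures.

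CSF1 (M-CSF) signals through CSF1R, a receptor tyrosine kinase on which microglia in the brain depend for survival. CSF2 (GM-CSF) binds a receptor made of the specific alpha chain CSF2RA and the common beta chain CSF2RB, which signals through JAK2 and STAT5. Mice carry a second beta chain gene, *Csf2rb2*, whose product works with the interleukin 3 receptor. CSF3 (G-CSF) binds a homodimer of CSF3R and is best known for driving the production and release of neutrophils. LPS is a classical inducer of the ligand genes in macrophages, through NF-κB and other factors.

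Total counts per library ranged from 11371508 to 16829292. Of 14 markers of microglia and macrophages, 10 were above the floor of 3 counts in every library and *Sall1*, a transcription factor of brain microglia, was at or below it in every library. The microglial markers *P2ry12* and *Gpr34* were at or below the floor in every aged LPS-treated library. The 6 neuronal markers were at or below the floor in every library, and the summed level of 6 granulocyte markers, which matters here because granulocytes express *Csf3r*, never exceeded 1.41 CPM (counts scaled to library size). The summed levels of astrocyte, oligodendrocyte, fibroblast and lymphocyte markers never exceeded 1.52 CPM. Of 5 endothelial markers 1 was above the floor in every library, and their summed level was 66.2 to 112 CPM. The replicate number is a batch number in the labels, so each of the 5 batches held 1 culture of every group. One pair of aged libraries stood apart. On a scale of all genes tested on which the mean young profile is 0 and the mean aged profile is 1, aged replicate 3 lay at 0.691 untreated and 0.579 with LPS, where the other aged libraries lay between 0.832 and 1.06 and the young libraries between -0.146 and 0.358. Young replicates 4 and 5 lay toward the aged profile, at 0.316 and 0.292 untreated and 0.358 and 0.182 with LPS. A fit without both of these was not made. Age comparisons of *Csf1r*, *Csf2rb* and *Csf2rb2*, and the *Csf1* results for aged cultures with LPS, are given with and without aged replicate 3. As it is the aged culture nearest the young profile, leaving it out favours larger age differences and is no independent support for them.

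In the mouse genome build GRCm38, *Csf1* (ENSMUSG00000014599) lies at chr3:107741048-107760469 on the minus strand and *Csf3* (ENSMUSG00000038067) at chr11:98701263-98703629 on the plus strand. *Csf2* (ENSMUSG00000018916) lies at chr11:54247271-54249667 on the minus strand, where 96 bp of its exons overlap the antisense gene *Gm12223*, which had a count of 0 in every library. *Csf2ra* (ENSMUSG00000059326) lies at chr19:61223957-61228429 on the minus strand and *Csf3r* (ENSMUSG00000028859) at chr4:126024550-126044440 on the plus strand. The beta chain genes are neighbours on chromosome 15, *Csf2rb2* (ENSMUSG00000071714) at chr15:78282507-78305721 on the minus strand and *Csf2rb* (ENSMUSG00000071713) at chr15:78325752-78353847 on the plus strand. The position of *Csf1r* is given with its values. All 8 are protein-coding genes.

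The 2 beta chain genes are close copies of each other, which bears on every value given for them. Their coding sequences were identical at 2505 of 2631 aligned bases (95.2%), and the longest identical run was 242 bases. Of all 100-base windows in the annotated transcripts, 4.63% of those of *Csf2rb* and 6.82% of those of *Csf2rb2* occur in both genes without a difference, and of all 50-base windows 12.3% and 18.4% do. The run had 100 cycles for paired ends, and the length of each read is not given in the sources used here. The settings for reads with several alignments are not given in the sources used here, so reads from such windows may have been dropped or counted for either gene. The stretch of 90 coding bases with the most differences, 16, shows where the copies can be told apart. Bases in capitals differ between the genes, and the sequences are GRCm38, chr15:78338897-78338986 on the plus strand for *Csf2rb* and chr15:78294345-78294434 on the minus strand for *Csf2rb2*.
Csf2rb: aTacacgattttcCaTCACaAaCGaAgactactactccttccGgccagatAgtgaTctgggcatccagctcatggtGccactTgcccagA
Csf2rb2: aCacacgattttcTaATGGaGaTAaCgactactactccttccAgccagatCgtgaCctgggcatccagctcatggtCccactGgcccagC

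Promoter sequences from RefSeq (GRCm38.p6), reaching from 250 bases before to 50 bases after the start of the gene, were at hand for 5 of the 8 genes: *Csf1*, *Csf2*, *Csf2ra*, *Csf2rb2* and *Csf3r*. They were searched on both strands for the consensus of NF-κB and for the letters TGANTCA of AP-1, TTGCNNAA of C/EBP factors, GAGGAAG of ETS factors including the macrophage factor PU.1, TTCNNNGAA of STAT factors and TATAAA of the TBP element. The *Csf1* promoter is shown because *Csf1* was the ligand gene with counts in every library and responded to LPS. It held a match to the NF-κB consensus, on the minus strand at positions -154 to -145 with the start at 0, and no match to the other motifs. A match of this kind was present in 4.50% of 32851 mouse promoters of the same length. The promoters of *Csf2ra* and *Csf3r* are shown because both genes were lower in aged cultures with no overlap between the groups. *Csf2ra* held 2 matches to GAGGAAG that share a base, at -14 to -8 and -8 to -2, and *Csf3r* held 1 at -86 to -80, a motif present in 13.6% of the promoters. For *Csf3r* the RefSeq start lies 109 bases from the start in the annotation used for the counts, for *Csf2ra* 11 bases and for *Csf2* 232 bases. *Csf2rb2* held 2 matches to GAGGAAG and 1 to the STAT letters, which 8.30% of the promoters held, and *Csf2* held 1 to the C/EBP letters, which 10.8% held. Capitals mark the NF-κB match in *Csf1* and the GAGGAAG matches in the other 2 promoters, which are chr3:107760420-107760719 (minus strand), chr19:61228369-61228668 (minus strand) and chr4:126024409-126024708 (plus strand).
Csf1: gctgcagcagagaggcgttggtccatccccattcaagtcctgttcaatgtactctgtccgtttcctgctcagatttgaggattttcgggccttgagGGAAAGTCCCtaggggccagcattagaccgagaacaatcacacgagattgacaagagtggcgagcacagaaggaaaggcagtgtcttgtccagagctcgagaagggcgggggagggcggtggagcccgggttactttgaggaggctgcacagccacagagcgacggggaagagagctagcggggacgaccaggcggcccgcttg
Csf2ra: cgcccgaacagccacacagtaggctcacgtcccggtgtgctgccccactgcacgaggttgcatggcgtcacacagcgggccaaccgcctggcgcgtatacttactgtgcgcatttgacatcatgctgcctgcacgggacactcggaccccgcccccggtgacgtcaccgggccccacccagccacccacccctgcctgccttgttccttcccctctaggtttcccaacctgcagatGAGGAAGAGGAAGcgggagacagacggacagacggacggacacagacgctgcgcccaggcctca
Csf3r: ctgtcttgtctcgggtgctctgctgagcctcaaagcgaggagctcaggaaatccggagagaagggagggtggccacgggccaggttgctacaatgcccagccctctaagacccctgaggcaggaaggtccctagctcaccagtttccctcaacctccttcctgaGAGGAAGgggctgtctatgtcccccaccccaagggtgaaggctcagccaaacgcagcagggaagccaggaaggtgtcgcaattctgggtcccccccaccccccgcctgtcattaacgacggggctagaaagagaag

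Levels of different genes were set side by side as CPM divided by the exon length in kilobases (RPKM). *Csf1r* was the most abundant of the 8 in every group, at a mean of 148 ± 17.1 RPKM (SD, n = 5) in young untreated, 109 ± 15.3 in aged untreated, 148 ± 19.6 in young LPS-treated and 114 ± 19.4 in aged LPS-treated cultures, and its values did not overlap those of the next gene. In young untreated cultures the alpha and beta chain genes came next. There *Csf2rb* had 32.2 ± 7.95, *Csf2ra* 27.9 ± 3.18 and *Csf2rb2* 27.2 ± 7.74 RPKM, and neighbours in this order overlapped. *Csf1*, at 15.7 ± 2.39 RPKM in young untreated cultures, overlapped *Csf2rb2*, and *Csf3r*, at 5.17 ± 0.684, lay below it without overlap. *Csf3* had 0.631 ± 0.371 RPKM in that group. In aged untreated cultures *Csf1*, at 17.9 ± 2.02 RPKM, stood between *Csf2ra*, at 18.3 ± 3.45, and *Csf2rb2*, at 16.4 ± 4.88, with overlap.

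With LPS *Csf1* and *Csf3* moved up in this order, while *Csf2* stayed last. *Csf1* reached a mean of 63.4 ± 23.6 RPKM (SD, n = 5) in young and 38.7 ± 13.6 in aged LPS-treated cultures. *Csf3* reached 58.5 ± 8.53 RPKM in young and 38.4 ± 8.92 in aged LPS-treated cultures, a level that overlapped that of *Csf1* in both groups. *Csf3r* stayed at the low end in both, at 5.26 ± 0.768 and 2.66 ± 0.427 RPKM.

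*Csf2*, the gene of GM-CSF, was at or below the floor of detection. It had a count of 0 in 18 of the 20 libraries and 1 count each in aged LPS-treated replicates 1 and 3. The floor of 3 counts per library corresponds to 0.165 to 0.296 CPM. *Csf2* did not pass the filter on low counts, so 7 of the 8 genes were tested across the genome. All libraries of the other 3 groups were at 0. A test of aged against young untreated cultures, or of LPS in young cultures, thus has a fixed outcome and is not given. An exact two-sided permutation test of its log2 CPM gave p = 0.444 for LPS in aged cultures and for aged against young LPS-treated cultures, where groups of 5 allow 0.00794 at the smallest. An increase with LPS was not detectable at this depth.

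*Csf3*, the gene of G-CSF, was the member that moved most. In young untreated cultures it had 25, 15, 14, 9 and 5 counts in replicates 1 to 5, or 1.72, 0.959, 0.845, 0.593 and 0.333 CPM, a mean of 0.891 ± 0.525 CPM (SD, n = 5). In aged untreated cultures it had 0 counts in each of the 5 libraries. The groups did not overlap, as was the case in this direction for 6.63% of all genes tested, and against the floor of 3 counts per library the mean was at least 4.78-fold lower in aged cultures (edgeR quasi-likelihood test, adjusted p = 0.00122). *Csf3* passed the filter on low counts only through the LPS-treated cultures, where it was high. The untreated cultures alone would not have admitted it, so its tests describe these counts and add no independent support. In these bulk samples fewer cells with the transcript and less transcript per cell cannot be told apart, for *Csf3* and for the genes that follow.

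After LPS *Csf3* was abundant at both ages. Young LPS-treated cultures had 84.0, 63.1, 95.9, 82.9 and 87.3 CPM, a mean of 82.7 ± 12.1 (SD, n = 5). Aged LPS-treated cultures had 40.0, 46.3, 70.9, 63.3 and 51.1 CPM, a mean of 54.3 ± 12.6. The aged values lay below the young ones except that aged replicates 3 and 4 were above young replicate 2. *Csf3* rose with LPS in young cultures by a log2 fold change of 6.53 ± 0.24 (SE, edgeR with an adjusted p = 3.12e-14), a ratio of mean CPM of 92.8. Within batches this ratio ran from 48.7 in batch 1, where the untreated culture had the most counts, to 262 in batch 5, where it had the fewest. In aged cultures the rise was at least 292-fold against the floor (edgeR adjusted p = 5.19e-14).

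The level of *Csf3* after LPS was lower in aged than in young cultures, with a log2 fold change of -0.61 ± 0.15 (SE, edgeR adjusted p = 0.00552, n = 5 per group), and the aged culture was the lower one in 5 of 5 batches. Its LPS responses also differed between the ages in the edgeR test of that difference (adjusted p = 0.00718). The size of that difference is not given as a fold, because it rests on the zeros of the aged untreated cultures and its fitted value depends on the prior count. In the group means the proportional rise was larger in aged cultures, at least 292-fold against the floor beside 92.8-fold in young ones, while the level reached was lower. Whether this holds within each batch was not tested.

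*Csf1*, the gene of M-CSF, was expressed in every culture without LPS. Young untreated cultures had 91.7, 67.9, 76.9, 99.7 and 79.1 CPM and aged untreated cultures 107, 78.3, 91.6, 96.7 and 100.1 CPM. The groups overlapped and did not pass the test (log2 fold change 0.19, 95% interval -0.24 to 0.62, edgeR adjusted p = 0.632). With LPS the values were 548, 335, 296, 236 and 259 CPM in young and 216, 138, 322, 171 and 174 CPM in aged cultures. Neither LPS-treated group overlapped the untreated group of its age, and 23.9% (young) and 21% (aged) of all genes tested were higher with LPS in this way.

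*Csf1* rose with LPS by a log2 fold change of 2.01 ± 0.21 (SE) in young cultures (edgeR adjusted p = 2.00e-08), or 4.02-fold, and by 1.11 ± 0.21 in aged cultures (adjusted p = 9.16e-05), or 2.16-fold. Within batches the ratio of LPS-treated to untreated CPM was 5.97, 4.93, 3.85, 2.36 and 3.28 in young cultures of batches 1 to 5. In aged cultures it was 2.03, 1.76, 3.52, 1.77 and 1.73. The aged response was the smaller one in 5 of 5 batches, by 0.13 log2 units in batch 3 and by 0.42 to 1.56 in the others.

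The difference of the *Csf1* responses, -0.90 ± 0.29 on the log2 scale (95% interval -1.50 to -0.30), missed the threshold in the fit without a block (edgeR adjusted p = 0.0700). With the batch number as a block it passed (adjusted p = 0.0339), and with a batch block within each age, a fit added after seeing the data, the adjusted p was 0.0111. It also passed without aged replicate 3 (log2 difference -1.14, adjusted p = 0.00889), without the LPS-treated library of aged replicate 3 alone (adjusted p = 0.00613) and without that of young replicate 4 (adjusted p = 0.0330). After LPS, *Csf1* was lower in aged than in young cultures by a log2 fold change of -0.71 ± 0.20 (SE, edgeR adjusted p = 0.0110), with overlapping groups and the aged value lower in 4 of 5 batches. A fit of these 2 groups alone gave an adjusted p of 0.0522, and leaving out the 4 libraries of batch 1 or of batch 2 gave 0.0714 and 0.0778. Without aged replicate 3 the log2 fold change was -0.93 (edgeR adjusted p = 5.8e-04).

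**Figure D1:**
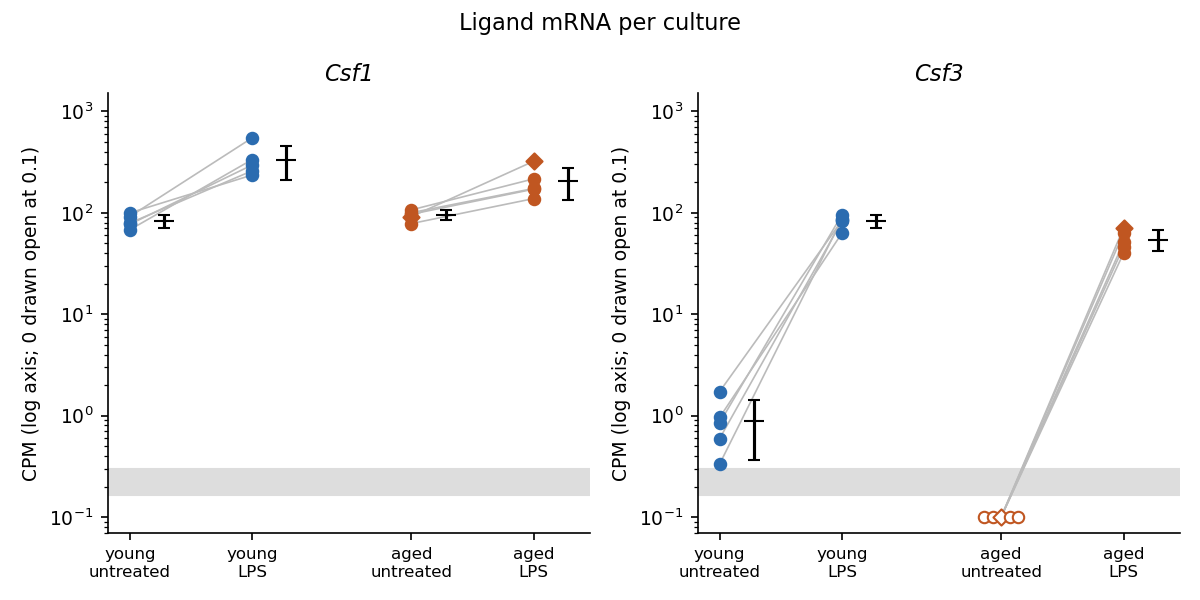
CPM on a log axis (vertical) of *Csf1* and *Csf3* in the 20 cultures by group (horizontal), with young cultures in blue and aged cultures in orange, aged replicate 3 as a diamond, and grey lines joining cultures of the same age and batch. Black marks are group means with SD, the grey band is the floor of 3 counts (0.165 to 0.296 CPM), and open symbols at 0.1 are counts of 0. *Csf3* started at 0 in the aged and at 0.333 to 1.72 CPM in the young untreated cultures and lay between 40.0 and 95.9 CPM in all 10 LPS-treated ones.

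Of the 5 receptor genes, 4 were called lower in aged cells with and without LPS in the fit without a block. The age calls of *Csf2ra* and *Csf3r* held in every setting tried. Those of *Csf1r*, *Csf2rb* and *Csf2rb2* depended on the settings or libraries given with their values. Of the 7 genes tested, 5 were lower in aged than in young untreated cultures, the ligand gene *Csf3* and the receptor genes *Csf1r*, *Csf2ra*, *Csf2rb* and *Csf3r*, and none was higher. Of all 12799 genes tested, 11.5% were called in this comparison at an edgeR adjusted p below 0.05, 7.81% as lower and 3.71% as higher. *Csf3* passed the filter on low counts only through the LPS-treated cultures, so its place in the untreated count is no independent support. In LPS-treated cultures 6 of the 7 were lower, *Csf1*, *Csf3*, *Csf1r*, *Csf2ra*, *Csf2rb* and *Csf3r*, where 29% of all genes were called, 15% as lower and 14% as higher. With the batch number as a block *Csf2rb2* was called as well in both comparisons, so that 6 of 7 and 7 of 7 were lower.

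*Csf3r*, the G-CSF receptor gene, showed the largest age difference among the receptors. It had 19.0, 17.7, 20.3, 21.3 and 15.0 CPM in young and 10.6, 7.27, 8.45, 9.45 and 9.19 CPM in aged untreated cultures, so the highest aged value lay below the lowest young one. With LPS it had 15.4, 19.3, 22.7, 20.1 and 17.3 CPM in young and 8.29, 7.75, 10.9, 11.2 and 9.77 CPM in aged cultures, again without overlap. With LPS 8.16% of all genes tested were lower in aged cultures without overlap. The log2 fold change of aged to young was -1.05 ± 0.12 (SE) untreated (edgeR adjusted p = 6.81e-06), or 2.08-fold lower, and -0.99 ± 0.13 with LPS (adjusted p = 4.87e-06), or 1.98-fold lower. Aged replicate 3, which stood apart over all genes, lay within the range of the other aged cultures in this gene.

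*Csf3r* did not pass the test for LPS at either age. The log2 fold change was 0.03 (95% interval -0.22 to 0.27) in young and 0.09 (-0.18 to 0.37) in aged cultures, and the value was higher with LPS in 3 of 5 young and 4 of 5 aged batches. Scaling by library size alone turned the sign to -0.19 and -0.07, still short of the threshold. While *Csf3* rose by the folds given above, the gene of its receptor thus had an LPS effect bounded by these intervals.

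*Csf2ra*, the alpha chain specific to GM-CSF, was the 1 receptor gene called for LPS at either age in the fit without a block. It had 92.2, 80.9, 84.6, 73.1 and 69.4 CPM in young and 46.8, 47.0, 69.0, 55.2 and 45.3 CPM in aged untreated cultures. With LPS it had 126, 127, 145, 145 and 106 CPM in young and 81.2, 75.9, 89.3, 75.3 and 84.4 CPM in aged cultures. Young and aged cultures did not overlap under either treatment, nor did treated and untreated cultures of either age. Of all genes tested, 6.63% untreated and 8.16% with LPS were lower in aged cultures without overlap. In the same way 23.9% (young) and 21% (aged) were higher with LPS. The aged LPS-treated cultures, at a mean of 81.2 ± 5.90 CPM (SD, n = 5), lay at about the level of the young untreated ones, at 80.0 ± 9.12.

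*Csf2ra* rose with LPS by a log2 fold change of 0.70 ± 0.10 (SE) in young (edgeR adjusted p = 3.93e-06) and 0.62 ± 0.11 in aged cultures (adjusted p = 3.38e-05), and it was higher in 10 of 10 pairs of the same age and batch, as were 27.6% of all genes tested. It was lower in aged cells by -0.60 ± 0.11 untreated (adjusted p = 7.76e-04) and by -0.68 ± 0.11 with LPS (adjusted p = 4.14e-05). Its LPS responses differed by -0.08 between the ages, with a 95% interval of -0.38 to 0.23 (edgeR adjusted p = 0.858).

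*Csf1r* (ENSMUSG00000024621), the M-CSF receptor gene, lies at chr18:61100598-61132149 on the plus strand of GRCm38. It had 973, 915, 877, 757 and 748 CPM in young and 562, 623, 784, 598 and 588 CPM in aged untreated cultures. With LPS it had 998, 929.9, 866, 724 and 765 CPM in young and 569.7, 662, 847, 596 and 607 CPM in aged cultures. The overlap between the ages came from aged replicate 3, whose 784 and 847 CPM lay within the young range. The other 4 aged cultures of each treatment lay below every young one. The log2 fold change of aged to young was -0.44 ± 0.11 (SE) untreated (edgeR adjusted p = 0.0132), or 1.35-fold lower, and -0.38 ± 0.11 with LPS (adjusted p = 0.0123), or 1.30-fold lower. The aged culture was the lower one in 5 of 5 batches under both treatments. Without aged replicate 3 the log2 fold change was -0.53 untreated (edgeR adjusted p = 4.6e-04) and -0.49 with LPS (adjusted p = 1.9e-04). Leaving out the 4 libraries of batch 1 or of batch 2 ended the call (adjusted p = 0.0667 and 0.109 untreated, 0.0896 and 0.0871 with LPS). Of its exon sequence 873 bp, or 15.1%, overlap *Hmgxb3* on the other strand, which had 954 to 1595 counts per library, and the strand setting of the counting is not given in the sources used here.

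*Csf1r* did not pass the test for LPS at either age. Its log2 fold change was 0.00 (95% interval -0.23 to 0.23) in young and 0.06 (-0.17 to 0.29) in aged cultures, and within batches the ratio of LPS-treated to untreated CPM ran from 0.956 to 1.03 in young and from 0.997 to 1.08 in aged cultures. Scaling by library size alone gave -0.22 and -0.10, without a call at either age. These intervals stand beside a 4.02-fold and a 2.16-fold rise of *Csf1*, the gene of its ligand.

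*Csf2rb*, the common beta chain, had 315, 240.0, 257, 193 and 167 CPM in young and 120.1, 140.1, 223, 134 and 119.6 CPM in aged untreated cultures. With LPS it had 419.6, 297, 319, 224 and 218 CPM in young and 145, 151, 278, 154 and 147 CPM in aged cultures. Aged replicate 3 again lay within the young range under both treatments, and the other aged cultures lay below every young culture of their treatment. The log2 fold change of aged to young was -0.67 ± 0.22 (SE) untreated (edgeR adjusted p = 0.0475) and -0.75 ± 0.22 with LPS (adjusted p = 0.0112), and the aged culture was lower in 5 of 5 batches under both.

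The untreated call for *Csf2rb* was close to the threshold. DESeq2 gave an adjusted p of 0.0588 and its size factors in edgeR 0.0516, and the call was lost without any 1 of 13 libraries, namely young untreated replicates 1 to 3, aged untreated and aged LPS-treated replicates 1, 2, 4 and 5, and young LPS-treated replicates 2 and 3, where the adjusted p ran from 0.0515 to 0.139. With the batch block the adjusted p was 0.00495, and without aged replicate 3 it was 0.00160 at a log2 fold change of -0.87. Leaving out the 4 libraries of batch 1, 2, 4 or 5 ended the untreated call (adjusted p = 0.192, 0.204, 0.09995 and 0.0724), and leaving out those of batch 1 or 2 ended the call with LPS (0.0762 and 0.0827).

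*Csf2rb2*, the second beta chain gene, followed *Csf2rb* closely. It had 185, 130.0, 135, 109.8 and 85.5 CPM in young and 59.5, 76.8, 117, 73.3 and 62.7 CPM in aged untreated cultures. With LPS it had 246, 155, 154, 110.1 and 103 CPM in young and 71.2, 80.6, 167, 85.6 and 74.2 CPM in aged cultures, with aged replicate 3 inside the young range under both treatments. The ratio of *Csf2rb* to *Csf2rb2* counts was 1.66 to 2.11 over the 20 libraries, with a mean of 1.89 ± 0.13 (SD). Reads shared between the copies would tie the values of both genes together, and how many such reads were counted was not tested.

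In the fit without a block *Csf2rb2* missed the threshold in both age comparisons, with a log2 fold change of aged to young of -0.72 ± 0.26 (SE; edgeR adjusted p = 0.0706) untreated and -0.68 ± 0.26 (adjusted p = 0.0515) with LPS. With the batch block it passed in both (adjusted p = 0.0187 and 0.0130). Without aged replicate 3 it passed as well, at a log2 fold change of -0.92 untreated (adjusted p = 0.00568) and -0.98 with LPS (adjusted p = 0.00114). Of the single libraries, leaving out untreated young replicate 5 or aged replicate 3, or LPS-treated young replicate 1 or aged replicate 3, brought the untreated comparison to an adjusted p between 0.0245 and 0.0433. Leaving out untreated young replicate 1 or 5 or aged replicate 3, or LPS-treated young replicate 4 or 5 or aged replicate 3, brought the LPS comparison to between 0.00270 and 0.0462. With all libraries and no block, omitting the filter on low counts also called *Csf2rb2* in both (adjusted p = 0.0203 and 0.0157), a fit of the compared groups alone called it untreated (0.0237), and with LPS so did DESeq2 size factors in edgeR (0.0487) and a filter of at least 10 counts in every library (0.0493).

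**Figure D2:**
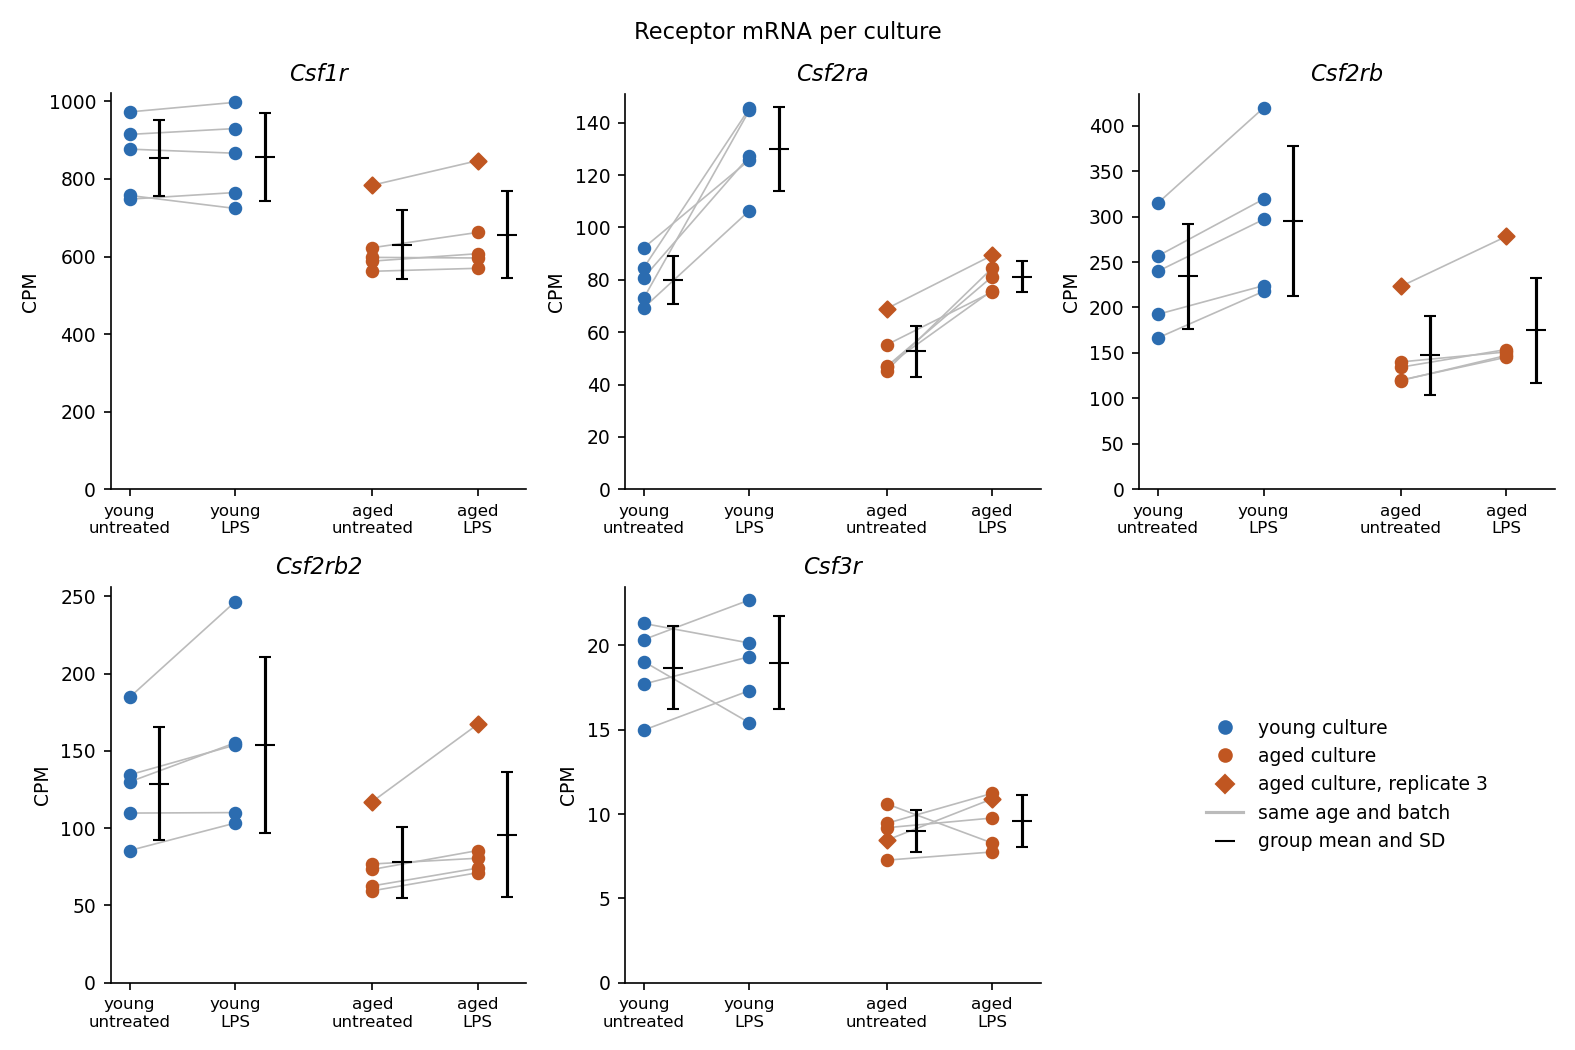
CPM (vertical, linear axes from 0) of the 5 receptor genes in the 20 cultures by group (horizontal), with young cultures in blue and aged cultures in orange, aged replicate 3 as a diamond, grey lines joining cultures of the same age and batch, and black marks for group means with SD. Aged replicate 3 lies at 784 and 847 CPM in *Csf1r*, inside the young range, but inside the aged range in *Csf3r*.

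The beta chain genes also showed a small LPS effect that depended on how the batches were treated and on the scaling. In the fit without a block the log2 fold change with LPS was 0.33 ± 0.21 (SE; edgeR adjusted p = 0.178) in young and 0.25 ± 0.22 (adjusted p = 0.350) in aged cultures for *Csf2rb*, and 0.25 ± 0.25 (adjusted p = 0.402) and 0.30 ± 0.26 (adjusted p = 0.348) for *Csf2rb2*. With the batch block the adjusted p was 0.0538 and 0.175 for *Csf2rb* and 0.281 and 0.248 for *Csf2rb2*, and with the block and without aged replicate 3 *Csf2rb* was called in young cultures (log2 fold change 0.33, adjusted p = 0.0251). Scaling by library size alone gave smaller log2 fold changes without a call, 0.11 and 0.087 for *Csf2rb* and 0.028 and 0.14 for *Csf2rb2*. Within pairs of cultures of the same age and batch, both genes were higher with LPS in 10 of 10 pairs on TMM-scaled CPM, as were 27.6% of all genes tested. The smallest rise was that of *Csf2rb2* in young batch 4, from 109.8 to 110.1 CPM. The pairs were not counted with library sizes alone. The ratio of LPS-treated to untreated CPM was 1.33, 1.24, 1.24, 1.16 and 1.31 in young and 1.21, 1.08, 1.25, 1.14 and 1.23 in aged cultures for *Csf2rb*. For *Csf2rb2* it was 1.33, 1.19, 1.14, 1.00 and 1.21 in young and 1.20, 1.05, 1.43, 1.17 and 1.18 in aged cultures.

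A batch block within each age, which compares each treated culture with its own untreated partner and was added after seeing the data, called both genes at both ages. For *Csf2rb* the edgeR adjusted p was 2.87e-07 in young and 2.14e-05 in aged cultures, and for *Csf2rb2* 0.00143 and 7.46e-04. This fit used TMM scaling and was not repeated with library sizes alone, so how far these calls depend on the scaling was not tested. The young libraries of *Csf2rb* spanned from 167 to 315 CPM without LPS, a range wider than the LPS effect itself.

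Counted over the members, 3 of the 7 genes tested rose with LPS in young cultures, *Csf1*, *Csf3* and *Csf2ra*, and the count was 5 of 7 with the block within each age. None fell. Of all genes tested 64.6% were called in this comparison, 31.2% as higher and 33.5% as lower, beside 42.9% of the tested members called as higher. In aged cultures the same 3 rose, or 5 with the block within each age, where 54.4% of all genes were called, 27.5% as higher and 26.9% as lower. The LPS responses differed between the ages for 1 of 7 genes, *Csf3*, or for 2 with the batch block, *Csf3* and *Csf1*, against 6.39% of all genes, 4.12% with a higher and 2.27% with a lower aged response. As *Csf3* passed the filter on low counts only through the LPS-treated cultures, its place in each of these counts is no independent support.

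**Figure D3:**
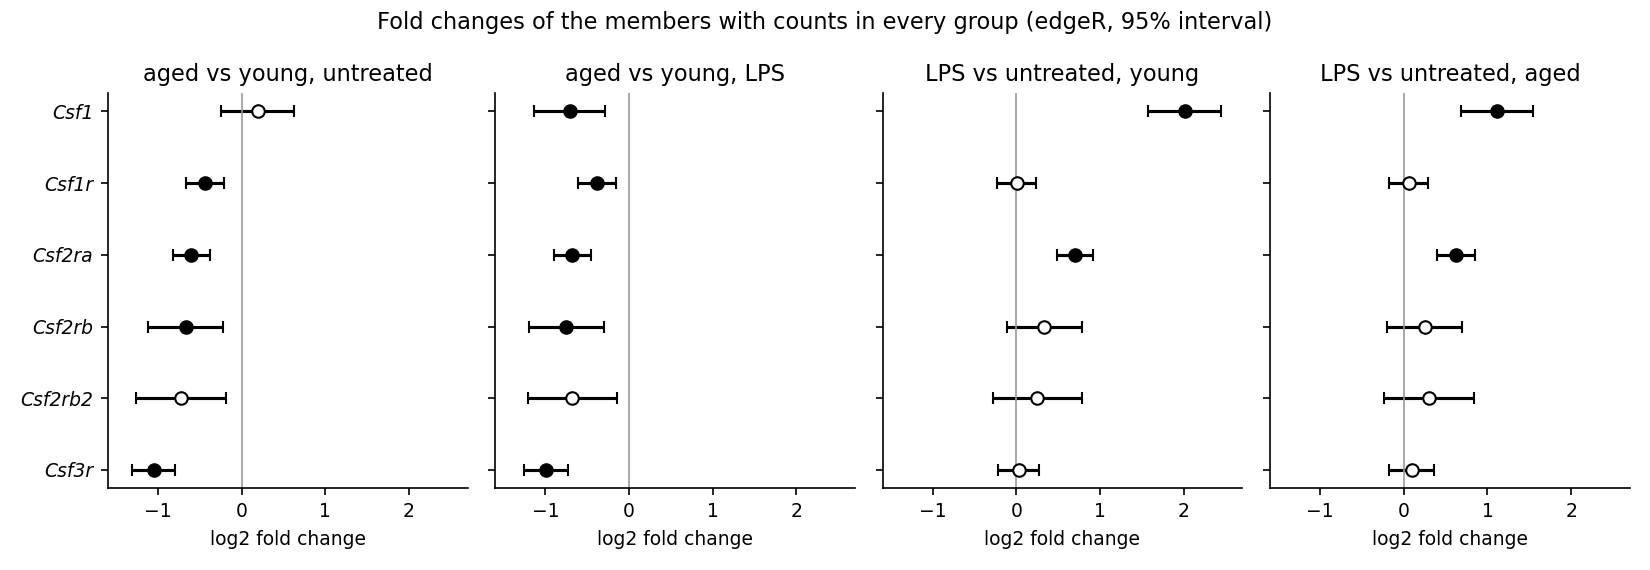
Log2 fold changes (horizontal) with 95% intervals from edgeR for the 6 genes with counts in every group (vertical), in 4 comparisons. Filled points passed an adjusted p of 0.05 over all genes tested, and *Csf3* is left out because its aged untreated counts were 0. The 5 receptor genes lie left of 0 in both age comparisons, and *Csf1*, at 2.01 in young cultures, lies farthest right.

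**Figure D4:**
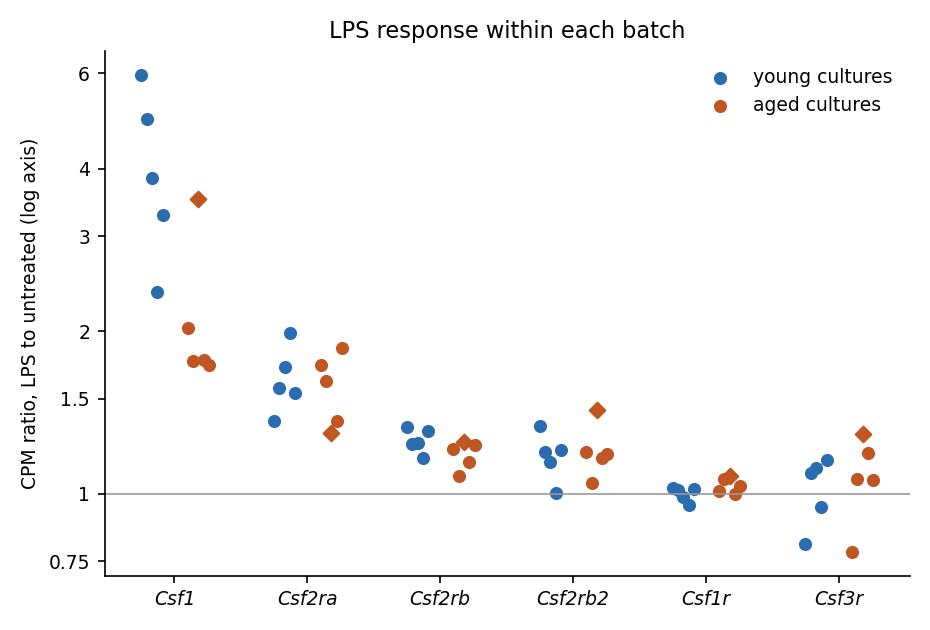
Ratio of LPS-treated to untreated CPM (vertical, log axis) within each of the 5 batches for 6 genes (horizontal), with young cultures in blue, aged cultures in orange and aged replicate 3 as a diamond. The *Csf1* ratios run from 2.36 to 5.97 in young cultures and, apart from the 3.52 of aged replicate 3, from 1.73 to 2.03 in aged cultures.

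Markers of microglia and macrophages also differed between the ages. Of 12 such markers tested, 3 were lower and 0 higher in aged untreated cultures, with a median log2 fold change of -0.45, and 5 were lower and 1 higher in aged LPS-treated cultures, with a median of -0.46, where the median of all genes tested was -0.01 and 0.01. Their summed level was 2277 to 3496 CPM in young untreated, 1961 to 3039 in aged untreated, 2458 to 3625 in young LPS-treated and 2076 to 3146 CPM in aged LPS-treated cultures. Untreated, 25% of the markers tested were called between the ages, and with LPS 50%, against 11.5% and 29% of all genes tested. With the batch block 4 markers were called untreated and 6 with LPS. Without aged replicate 3 the counts were 6 and 7. The part of these markers in the receptor values was not tested.

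Of 14 related ligands and receptors, 4 passed the filter on low counts. In the fit without a block none of the 4 was called between the ages. With the batch block *Il2rg* was lower in aged LPS-treated cultures (log2 fold change -0.12, edgeR adjusted p = 0.0463, against 0.0628 without it). *Il2rg*, the common gamma chain of other interleukin receptors, had group means of 94.0 to 148 CPM and rose with LPS at both ages, with log2 fold changes of 0.61 in young and 0.53 in aged cultures (edgeR adjusted p = 1.94e-10 and 3.27e-09). *Kitl*, the ligand of the KIT receptor, had group means of 51.9 to 65.0 CPM and rose by 0.27 and 0.20 (adjusted p = 0.00526 and 0.0341). *Epo*, the gene of erythropoietin, had group means of 7.24 to 9.13 CPM, and *Flt3l*, the FLT3 ligand gene, 0.493 to 0.962 CPM. Neither passed in any comparison of the fits with and without the batch block. *Flt3l* was at or below the floor in 3 of 5 aged LPS-treated libraries. Without aged replicate 3, 3 genes of the list were called for LPS in aged cultures and 1 between the ages with LPS. *Il34*, the other ligand of CSF1R, did not pass the filter. It is named although it falls outside the rule for named genes and after its values were seen, and it had 0 to 3 counts per library without LPS and 0 to 11 with it.

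Of 8 JAK-STAT genes, which carry the signals of these receptors, 5 rose and 3 fell in young cultures, and 5 rose and 2 fell in aged ones, with median log2 fold changes of 0.94 and 0.56, where the median of all genes tested was -0.01 and 0.00. These were 100% and 87.5% of the list, against 64.6% and 54.4% of all genes called. *Stat5a*, a mediator of GM-CSF signals, had the largest decrease, a log2 fold change with LPS of -0.81 in young and -0.78 in aged cultures (edgeR adjusted p = 2.79e-08 and 6.17e-08).

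*Jak2*, the kinase bound to the beta chain, and *Stat3*, which acts downstream of the G-CSF receptor, were the 2 genes of the list whose LPS responses differed between the ages in the fit without a block, where the batch block called 3 and leaving out aged replicate 3 also 3. The aged response was lower by log2 differences of -0.69 for *Jak2* (edgeR adjusted p = 0.0132) and -0.37 for *Stat3* (adjusted p = 0.0239). Between aged and young LPS-treated cultures 5 of the 8 genes were lower and 0 higher, and among them *Jak1* was at -0.11 (adjusted p = 0.0336). Between untreated cultures 1 was lower, *Tyk2* at -0.34 (adjusted p = 0.0195). These were 62.5% of the list with LPS and 12.5% untreated, against 29% and 11.5% of all genes tested. The responses differed for 25% of the list without the block, against 6.39% of all genes.

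Of 20 kinases and adaptors that act downstream of the receptors, 18 were tested. In untreated cultures 7 were lower and 1 higher with age. *Ywhaz*, an adaptor protein, was the 1 that was higher (log2 fold change 0.17, edgeR adjusted p = 0.00296). In LPS-treated cultures 8 were lower and 1 higher with age, the latter *Sos1*, an activator of RAS, at 0.27 (adjusted p = 0.00106). The share called was 44.4% untreated and 50% with LPS, against 11.5% and 29% of all genes tested.

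With LPS 9 of the 18 rose and 4 fell in young cultures, and 9 rose and 3 fell in aged ones. The share called was 72.2% and 66.7%, against 64.6% and 54.4% of all genes tested, and the median log2 fold change was 0.16 and 0.12. *Src* had the largest increase at both ages, by log2 fold changes of 4.17 and 3.81 (edgeR adjusted p = 2.96e-14 and 1.71e-12). The largest decrease was in *Mapk3*, an ERK kinase gene, in young (-0.55, adjusted p = 1.17e-06) and in *Pik3cd*, a PI3-kinase subunit gene, in aged cultures (-0.46, adjusted p = 8.53e-06). The responses differed for 3 genes, or 5 with the batch block, with *Mapk3* at 0.40 (adjusted p = 0.0285) and *Pik3r1*, a regulatory PI3-kinase subunit gene, at -0.42 (adjusted p = 0.0167). Without the block that was 16.7% of the genes tested in the list, against 6.39% of all genes.

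All 14 genes listed as negative regulators of the receptors were tested, and whether each acts only in that way was not tested. With LPS 8 rose and 2 fell in young cultures, and 8 rose and 3 fell in aged ones. That was 71.4% and 78.6% of the list, against 64.6% and 54.4% of all genes tested, and the medians were 0.33 and 0.28. *Socs1*, a suppressor of cytokine signalling, rose by log2 fold changes of 5.10 and 3.36 (edgeR adjusted p = 9.96e-12 and 1.01e-08), and *Inpp5d*, the gene of the phosphatase SHIP1, fell, with values of -1.68 and -1.51 (adjusted p = 1.04e-13 and 1.24e-12). *Inpp5d* was also the 1 gene of the list that differed with age in untreated cultures (-0.28, adjusted p = 0.0329), where the batch block called 2. After LPS 6 were lower with age and 0 higher, from *Cish*, a STAT5 target, at -1.42 (adjusted p = 0.00424) to *Ptpn11*, a phosphatase gene, at -0.18 (adjusted p = 0.0149). None of the 14 passed the edgeR test of the difference between the responses, which 6.39% of all genes did. The share called between the ages was 7.14% untreated and 42.9% with LPS, against 11.5% and 29% of all genes tested.

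Of 24 transcription factors that act on genes of this family, 22 were tested. With LPS 15 rose and 4 fell in young cultures, and 16 rose and 4 fell in aged ones. Of the factors tested 86.4% and 90.9% were thus called, against 64.6% and 54.4% of all genes tested, and their median log2 fold changes were 1.06 and 0.98. *Fosl1*, an AP-1 component, had the largest increase in young cultures (log2 fold change 3.29, edgeR adjusted p = 1.70e-14) and *Cebpd* in aged ones (2.81, adjusted p = 1.00e-14). *Cebpa*, a factor of myeloid differentiation, fell at both ages, with values of -1.94 and -1.30 (adjusted p = 7.13e-13 and 1.01e-09).

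In untreated cultures 6 of the 22 factors were lower with age and 1 higher, *Cebpa* at -0.57 (edgeR adjusted p = 0.00104) and *Fosl1* at 0.72 (adjusted p = 0.00648) being the extremes. With the batch block 12 of the 22 were called. In LPS-treated cultures 12 were lower and 2 higher, between *Junb* at -0.60 (adjusted p = 9.98e-06) and *Nfatc2* at 0.49 (adjusted p = 1.01e-05). The LPS responses differed for 4 factors, 3 with a higher and 1 with a lower aged response, *Nfatc2* at 0.67 (adjusted p = 1.62e-04) and *Junb* at -0.43 (adjusted p = 0.0285). Without the block 31.8% of the factors tested were called with age untreated and 63.6% with LPS, against 11.5% and 29% of all genes. For the responses it was 18.2%, against 6.39% of all genes.

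The messages of the ligand genes are short-lived, and 12 regulators of mRNA decay were tested for that reason. With LPS 6 rose and 4 fell in young cultures, and 7 rose and 3 fell in aged ones. The called share was 83.3% at both ages, against 64.6% and 54.4% of all genes tested, and the medians were 0.08 and 0.18. *Zc3h12a*, the gene of the endonuclease Regnase-1, rose by log2 fold changes of 3.23 and 3.40 (edgeR adjusted p = 4.30e-17 and 5.62e-17), and *Zfp36l1* fell, with values of -1.62 and -1.29 (adjusted p = 7.39e-11 and 4.91e-09). *Zc3h12a* was the 1 gene that differed with age in untreated cultures (-0.56, adjusted p = 0.00317), where the batch block called 2. Without the block 8.33% of the list was thus called, against 11.5% of all genes tested.

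After LPS 3 of these regulators were lower and 2 higher with age, between *Zfp36*, the gene of tristetraprolin, at -1.07 (edgeR adjusted p = 1.19e-06) and *Zfp36l2*, a member of the same family, at 0.36 (adjusted p = 2.23e-05). These 2 genes were also those whose LPS responses differed, by -0.72 for *Zfp36* (adjusted p = 0.0135) and 0.43 for *Zfp36l2* (adjusted p = 0.00118). With LPS 41.7% of the list differed between the ages and 16.7% in the responses, against 29% and 6.39% of all genes tested.

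Genes most like each member in pattern were found among 10882 genes by the root mean square (RMS) difference of log2 CPM over the 20 libraries, each gene centred on its own mean. *Csf2rb* and *Csf2rb2* were each other's nearest gene, at 0.0958 log2 units, and *Dnase1l1* was the next for both, at 0.155 and 0.191. *Csf1r* was nearest to *Ctss*, the gene of the microglial protease cathepsin S (0.0902), and *Os9* (0.109). *Csf2ra* was nearest to *Stab1* (0.144) and *Crim1* (0.151), and *Csf3r* to the Toll-like receptor gene *Tlr1* (0.232) and *Fxyd2* (0.255). *Csf1* was nearest to *Fndc3a* (0.218) and *Kremen1* (0.232). *Csf3* was nearest to *Traf1*, a signalling adaptor of TNF receptors (0.484), and *Rtp4* (0.490). The RMS difference to the median gene was between 0.362 for *Csf1r* and 3.92 for *Csf3*.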

How the data were processed

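Poly(A)-selected stranded libraries from total RNA of 20 BV-2 cultures were sequenced as paired ends. The authors aligned the reads to GRCm38 with STAR 2.6.1d and counted them per gene with featureCounts 1.5.1. They deposited these counts, whole numbers without normalization, per Ensembl gene. GRCh38 and hg19 also appear among the builds in the submitters' processing notes, without a role. The 8 genes were found by symbol through the GENCODE annotation of GRCm38, which held 55227 of the 55487 identifiers and gave the exon lengths for RPKM. The genes and the lists of related genes were chosen with earlier results of these data known.

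All 20 libraries entered 1 model by group, without a covariate, in edgeR 4.0.16 (limma 3.58.1, R 4.3.3). TMM scaling and filterByExpr, which kept 12799 genes, came before the quasi-likelihood F-test. The study itself compared groups with DESeq2. P-values were adjusted by Benjamini-Hochberg over all genes tested, and a gene was called at an adjusted p below 0.05. CPM values use TMM-scaled library sizes, and log2 CPM a prior count of 2. Counts of 3 or fewer were taken as the floor, which covers counting error only, as PCR copies were not marked. The chi-square of counts per degree of freedom was 2.42 to 26.8 for pairs of libraries within a group, so no library was counted as a repeat of another.

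Replicate numbers are batch numbers in the labels and so pair the cultures. Deviations from the group means of same-numbered cultures had a mean correlation across genes of 0.146, and of 0.276 (young) and 0.260 (aged) between the cultures with and without LPS of a given age. Between young and aged cultures it was weaker, 0.111 untreated (-0.084 to 0.253) and 0.042 with LPS (-0.214 to 0.275). Alternatives were the batch block, DESeq2 1.42.0, 2 other scalings, 2 other filters, a fit of the compared groups alone and each library left out. A block within each age, leaving out aged replicate 3 and leaving out each whole batch were added after seeing the data.

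Named genes were the 8 members, related ligands and receptors with more than 3 counts in every library of any group, the called genes with the highest and lowest log2 fold change of each other list and comparison, and the 2 genes nearest to each member in pattern. Some genes that this rule names are not reported here. Related genes and promoters were handled with Python 3.11.15, pandas 2.3.3 and Biopython 1.88.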

Additional observations from a re-analysis of the deposited data

Results flagged for a closer look

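In 27 groups of 5 cultures of the tested members, 3 held a culture far from the other 4, where chance gives about 1 in 20. All 3 were aged replicate 3. Its gap to the next culture, as a share of the group's range of log2 CPM, was 0.746 for *Csf2rb* without LPS, 0.912 for *Csf2rb* with LPS and 0.785 for *Csf2rb2* with LPS, above the critical value of 0.71. In each the culture was higher than the others. The values are those of a library pair that stood apart over all genes tested. The age comparisons of both genes without this pair stand beside those with it in the report.

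The LPS responses of *Csf3* differed between aged and young cultures in the edgeR test of the difference (adjusted p = 0.00718). Its aged untreated counts were 0 in 5 of 5 libraries and its young untreated counts 5 to 25. The gene passed the filter on low counts only through the LPS-treated cultures, and a filter of at least 10 counts in every library removes it.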

How the results depend on the processing

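The number of the 7 members called, 5 between the ages untreated and 6 with LPS, 3 for LPS in young and 3 in aged cultures and 1 for the difference of the responses, changed with several settings. With the batch block the counts between the ages were 6 untreated and 7 with LPS, and the block changed no other call than those of *Csf2rb2* and, for the difference of the responses, *Csf1*, where the count became 2. With a block within each age the LPS counts became 5 and 5 and that of the difference 2. Without a filter on low counts *Csf2rb2* was called in both age comparisons and the difference for 2 members, and with at least 10 counts in every library the difference for 0, since that filter removes *Csf3*. *Csf2rb2* was also called untreated in a fit of the compared groups alone, and with LPS under that stricter filter and under DESeq2 size factors in edgeR. Without aged replicate 3, with the batch block, it was called for 2. Leaving out 1 library, 1 batch or aged replicate 3 gave 3 to 6 members between the ages untreated and 3 to 7 with LPS, 3 for LPS at either age and 1 to 2 for the difference. The low counts came from leaving out whole batches 1 or 2, where *Csf1r* and *Csf2rb* under both treatments and *Csf1* with LPS were no longer called, and *Csf2rb* untreated was also lost without batch 4 or 5. Whether fewer cultures or those batches account for this was not tested.

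Directions turned only in LPS effects and differences of responses that had not passed the test. With library sizes alone the LPS effect of *Csf1r* was -0.22 in young and -0.10 in aged cultures and that of *Csf3r* -0.19 and -0.068, and without a filter that of *Csf1r* in young cultures was -0.020. Leaving out libraries gave log2 values of -0.057 to 0.059 and -0.051 to 0.15 for the LPS effect of *Csf1r* in young and aged cultures, -0.046 to 0.090 and 0.0060 to 0.20 for that of *Csf3r*, and -0.0029 to 0.49 for that of *Csf2rb2* in aged cultures. For the difference of the responses it gave -0.055 to 0.14 for *Csf1r*, -0.18 to 0.042 for *Csf2ra*, -0.32 to 0.11 for *Csf2rb*, -0.25 to 0.28 for *Csf2rb2* and -0.0092 to 0.14 for *Csf3r*. Leaving out aged replicate 3 with the batch block gave 0.013 for *Csf2ra*, -0.047 for *Csf2rb2* and -0.0072 for *Csf3r*. Depth limits *Csf2*, at 2 counts in all, and *Csf3* in untreated cultures.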
